A study of Homo sapiens with 8 samples.

Results

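Clustered histone genes are, for the most part, the replication-type genes for the linker histone H1 and the core histones H2A, H2B, H3 and H4, which package DNA into nucleosomes. They were taken here as the protein-coding genes of GENCODE release 44 (hg38) whose symbol starts with H1-, H2AC, H2BC, H3C or H4C followed by a digit. Described here are 73 of these genes, among 20033 protein-coding genes, namely 9 of the H1 family, 17 of H2A, 19 of H2B, 13 of H3 and 15 of H4. H3K27ac, the acetylation of histone H3 at lysine 27 that marks active promoters and enhancers, was measured by ChIP-seq in pancreatic progenitors (PPs) made from the human embryonic stem cell line MEL1, an established line that carries a GFP reporter at the insulin gene (INS GFP/W in the study's methods). All cells were PPs in EF6, a DMEM-based medium with B27, EGF, bFGF and the TGFβ inhibitor 616452, and were given for 7 days DMSO, the solvent, or I-BET151 at 1 μM, an inhibitor of the bromodomains with which BET proteins bind acetylated lysines. There were 2 H3K27ac libraries in each group, and 4 input libraries that had no peak list of their own. A single line was used, and the sources used here do not say whether replicates came from separate differentiations, so p-values measure only the spread between these libraries, which may be technical.

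Most members lie in large clusters, where genes for the core histones often stand head to head and share the DNA between their starts. Transcription of these genes rises when a cell copies its DNA, and their mRNA usually ends in a short stem-loop instead of a poly(A) tail. Each family has promoter elements of its own, such as the octamer bound by POU2F1 at H2B genes. H1-10 stands alone and makes polyadenylated mRNA.

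The sequences in front of the starts are shown first, since the peaks are described by their position relative to these starts. The RefSeq promoter table held an entry for 67 of the 73 members, and its 250 bases before the start were searched. It held none for H2AC12, H2BC12L, H3C11, H3C12, H4C1 and H4C3. Capitals mark the exact letters searched, on either strand. They are, where present, the TATA box, searched as TATAAA, and the box of 5 letters that is named by its own letters, CCAAT, of which H4C8 has neither and H2BC10 only the latter. In those of H2A and H2B they are also the octamer, searched as ATTTGCAT. In that of H1-4 they are the H1 box, searched as AAACACA, and in that of H4C8 the H4 element, searched as GGTCCG. In that of H2BC17 they are also an E2F site, searched as TTTCGCGC and present on the opposite strand. Coordinates are those of GRCh38.p14. H1-4 and H2BC10 are shown as genes with a peak in every library, H2AC6 and H2BC17 as genes whose peak was called in both DMSO libraries alone, and H4C8 as a gene with no peak.
H1-4, chr6:26156079-26156328, plus strand: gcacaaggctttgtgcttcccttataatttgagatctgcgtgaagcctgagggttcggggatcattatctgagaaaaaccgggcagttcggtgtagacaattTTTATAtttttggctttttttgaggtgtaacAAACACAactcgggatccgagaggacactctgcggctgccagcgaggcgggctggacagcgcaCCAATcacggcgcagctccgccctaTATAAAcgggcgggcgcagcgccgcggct
H2BC10, chr6:26272681-26272930, plus strand: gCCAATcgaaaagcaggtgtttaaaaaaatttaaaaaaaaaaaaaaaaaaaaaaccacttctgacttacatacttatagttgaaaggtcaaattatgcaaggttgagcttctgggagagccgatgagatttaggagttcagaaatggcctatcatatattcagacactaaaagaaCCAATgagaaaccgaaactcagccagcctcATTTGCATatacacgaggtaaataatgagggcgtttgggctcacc
H2AC6, chr6:26123922-26124171, plus strand: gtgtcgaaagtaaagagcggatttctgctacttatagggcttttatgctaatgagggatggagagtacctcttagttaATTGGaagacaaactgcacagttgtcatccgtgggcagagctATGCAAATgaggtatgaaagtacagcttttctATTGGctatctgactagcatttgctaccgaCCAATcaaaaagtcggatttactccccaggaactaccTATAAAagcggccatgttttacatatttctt
H2BC17, chr6:27893175-27893424, plus strand: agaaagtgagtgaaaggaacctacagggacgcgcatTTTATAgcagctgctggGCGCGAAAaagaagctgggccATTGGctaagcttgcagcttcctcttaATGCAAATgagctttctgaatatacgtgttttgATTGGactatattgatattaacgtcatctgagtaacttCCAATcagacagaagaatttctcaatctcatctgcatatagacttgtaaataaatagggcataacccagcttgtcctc
H4C8, chr6:26285535-26285784, minus strand: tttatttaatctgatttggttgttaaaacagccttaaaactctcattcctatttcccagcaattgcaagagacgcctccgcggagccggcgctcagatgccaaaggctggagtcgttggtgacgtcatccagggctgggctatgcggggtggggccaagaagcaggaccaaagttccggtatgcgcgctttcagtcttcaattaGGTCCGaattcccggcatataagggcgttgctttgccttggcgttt

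The promoter of H2AC6 is at the same time that of H2BC4, which starts on the other strand at its left end. Its TATA box for H2AC6 ended 25 bases before the start, and its octamer ended 122 bases before it. In H2BC10 the octamer ended 37 bases before the start, and no TATAAA was present in the window. The H1 box of H1-4 ended 110 bases before its start, and the H4 element of H4C8 ended 40 bases before its start. Such matches are descriptions of letters and not evidence of binding.

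The motifs followed the histone families. The octamer was in 11 of 16 H2A and 14 of 18 H2B promoters, against 1.63% of the 35116 promoters of the table, and in 0 of the 9 H1, 11 H3 and 13 H4 promoters. The H4 element was in 12 of 13 H4 promoters, against 9.43% of all promoters. The H1 box was in 7 of 9 H1 promoters, against 4.82% of all. A CCAAT box was in every H2A, H2B and H3 promoter of the table, in 8 of 9 H1 promoters and in 3 of 13 H4 promoters, against 32% of all promoters. A TATA box was in 43 of 67 members, against 10.7% of all. E2F sites, searched as TTTCGCGC and as the similar string TTTGGCGC, were in 11 of 67 members, against 0.968% of all. By peak class, the octamer was in 5 of 12 promoters of members with a peak in all 4 libraries, in 12 of 39 of those with none, and in 5 of 6 of those with a peak in the DMSO libraries alone. These last 6 are all H2A or H2B genes, the families that hold the octamer. Among them, the starts of H2BC5 and H2BC6 lie 13772 bp or more and 11501 bp or more from the peak counted for them. H2BC4 with H2AC6, and H2AC17 with H2BC17, are head-to-head pairs. In the same order, the TATA box was in 5 of 12, 28 of 39 and 6 of 6, and the CCAAT box in 10 of 12, 30 of 39 and 6 of 6. Whether any motif goes with the peak class was not tested. None of these motifs contains another, and a head-to-head pair counts the same match for both genes.

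**Figure D1:**
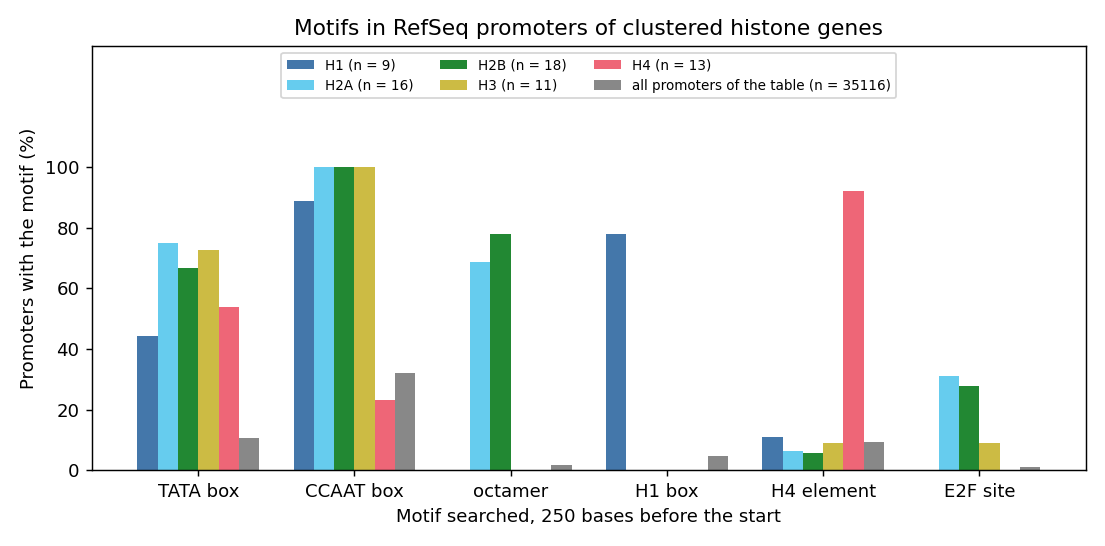
Share of promoters (vertical axis, %) with each motif (horizontal axis) in the 250 bases before the start, for each histone family and for all 35116 RefSeq promoters; bars start at 0. Among the families the octamer stands only over H2A and H2B (68.8% and 77.8%), with 1.63% of all promoters, and the H4 element is highest over H4 (92.3%).

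The histone 3′ stem-loop, searched by its consensus within 150 bp after an annotated stop codon, was present in 69 of 73 members and in 6 of 19871 other protein-coding genes with a stop codon, 0.0302%. Those other genes were EIF3I, BTBD10, AKAP1 and the histone genes H2AX, H3-4 and H3-7. The members without the stem-loop were H1-10, H1-7, H1-8 and H2BC12L. Of these, H1-10 had a peak in every library and the others in none. Among the 12 members with a peak in all 4 libraries 11 had the stem-loop, and among the 44 members with no peak 41 had it.

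The peak lists held 13606 and 14248 peaks for DMSO and 12887 and 12312 for I-BET151, from an estimated 7.76 to 9.84 M ChIP reads per library, of which DMSO replicate 2 had the most. These depths were not counted but worked out from each list, with its lowest input level taken as the genome-wide one, its shortest peak as the fragment length and the default genome size of the peak caller. Pancreatic progenitor markers carried the mark: 9 of 10 had a peak in all 4 libraries, and PTF1A had none. None of the 13 pluripotent, endocrine, hepatic and mesenchymal markers had a peak, and of 2 blood markers SPI1 had a peak in DMSO replicate 2 alone. A member was said to have a peak in a library when at least 1 bp of a peak lay in its gene body or within 1 kb of it. Absence of a peak means that nothing passed the peak caller's threshold, not that acetylation was absent, and in bulk chromatin fewer cells with the mark and less of the mark per cell cannot be told apart.

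Fewer clustered histone genes carried H3K27ac peaks than protein-coding genes at large. A peak was present in all 4 libraries at 12 of 73 members, 16.4%, where 48.3% of all protein-coding genes had one. No library had a peak at 44 members, 60.3%, against 42.1% of all genes. Histone genes are short and so offer a small window. Among genes with a body of up to 5 kb, 9 of 60 members (15%) and 690 of 2781 genes (24.8%) had a peak in all 4 libraries, and 65% of members and 68.7% of these genes had none. With a window of 1 kb on either side of the start, which is the same for every gene, the shares with a peak in all 4 libraries were 16.4% of members and 43.5% of all genes.

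The 12 members with a peak in every library belonged to all families. They were the H1 genes H1-2, H1-4 and H1-10, the H2A genes H2AC7, H2AC11 and H2AC25, the H2B genes H2BC7, H2BC10, H2BC11 and H2BC26, H3C8 of H3 and H4C16 of H4. At least 1 library had a peak at 4 of 9 H1, 9 of 17 H2A, 10 of 19 H2B, 4 of 13 H3 and 2 of 15 H4 genes. H4 genes, most of which encode the same protein, thus had the lowest share, 13.3%, and H2A the highest, 52.9%. Members of a family share peaks and sequence, so these shares were not tested.

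The members with no peak in any library were, of H1, H1-1, H1-3, H1-6, H1-7 and H1-8, of which H1-6, H1-7 and H1-8 are germ cell forms. Of H2A they were H2AC1, H2AC4, H2AC8, H2AC12, H2AC13, H2AC14, H2AC16 and H2AC18. Of H2B they were H2BC1, H2BC3, H2BC8, H2BC12, H2BC12L, H2BC13, H2BC14, H2BC18 and H2BC21. Of H3 they were H3C1, H3C2, H3C3, H3C4, H3C10, H3C11, H3C13, H3C14 and H3C15. Of H4 they were H4C1, H4C2, H4C3, H4C4, H4C5, H4C6, H4C7, H4C8, H4C11, H4C12, H4C13, H4C14 and H4C15. Their starts lay a median of 14036.5 bp from the nearest summit of any library, from 1315 bp at H2BC21 to 265478 bp at H2AC1. For 38 of the 44 this distance was at least 5 kb.

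Many clustered histone genes are near copies of each other, and reads that match several places cannot be placed with certainty. Over the 500 bp on either side of each start, a median of 7.94% of 32-base stretches recurred elsewhere in hg38 for members, against 0% for all genes. All stretches recurred at 7 members, which were H2AC18, H2AC19, H2BC12L, H3C14, H3C15, H4C14 and H4C15. Calls at these genes are uncertain. Of the 10 members above 50%, 0 had a peak in all 4 libraries, as had 18 of 863 genes of that class (2.09%). Where no stretch recurred, 1 of 9 members (11.1%) and 54.9% of 12936 genes had a peak in all 4 libraries. Between 0 and 10%, the shares were 25% of 32 members and 46.5% of 4405 genes. Of the 44 members with no peak, 24 had at most 10% of stretches repeated, among them H1-1, H1-3 and H4C3 with 0%. The part of repeated sequence in the calls was not tested further.

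**Figure D2:**
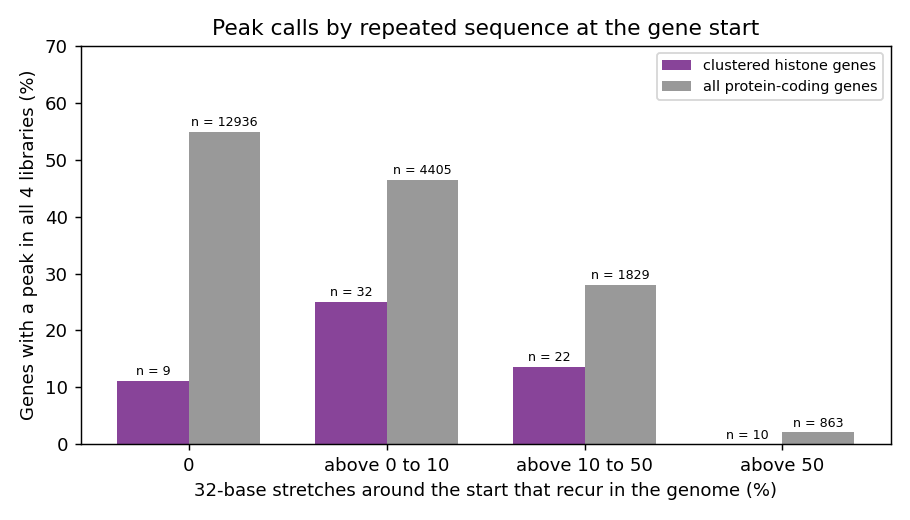
Genes with a peak in all 4 libraries (vertical axis, %) by the share of 32-base stretches around the start that recur in hg38 (horizontal axis, %), for clustered histone genes and all protein-coding genes, which include them; n is the number of genes in each bar, and bars start at 0. Histone genes lie below all genes in every class, at 11.1% (1 of 9) against 54.9% where nothing recurs. Above 50% they stand at 0 of 10 against 2.09%, too few members to compare. Classes were not matched for gene length.

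Most members stand in 2 segments. On chromosome 1, 11 members lie within 105 kb, where each list held 0 or 1 peak. On chromosome 6, 55 members and 20 other protein-coding genes lie within 2170 kb, where the lists held 21 and 18 peaks for DMSO and 17 and 15 for I-BET151. A gap of 840 kb divides the chromosome 6 members into 34 and 21. Among the 34, 6 had a peak in all 4 libraries and 7 in 1 to 3 libraries. Among the 21, 2 had a peak in all 4 libraries and 7 in 1 to 3 libraries. Outside both segments 4 of 7 members had a peak in all 4 libraries, namely H1-10, H2AC25, H2BC26 and H4C16.

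**Figure D3:**
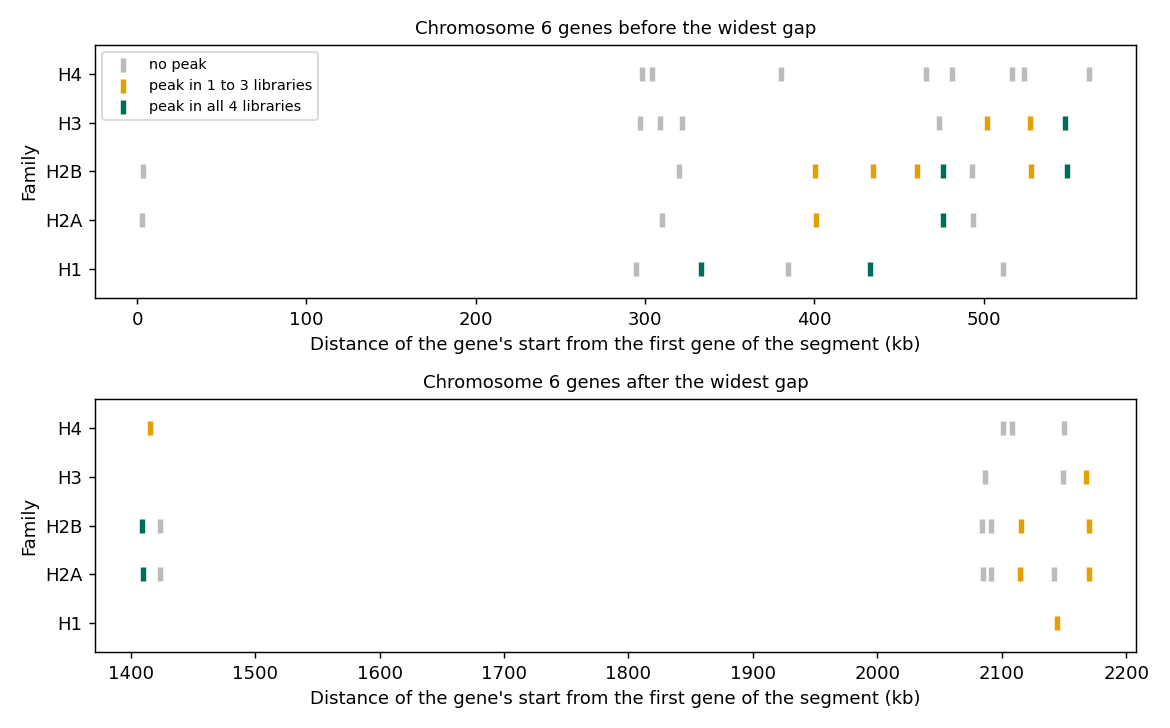
Starts of the 55 chromosome 6 members by distance from the first gene of the segment (horizontal axis, kb) and family (vertical axis), above before and below after the 840 kb gap; colour gives the number of libraries with a peak. Genes with a peak in all 4 libraries (8 of 55) stand next to genes with none, and no H4 gene before the gap has a peak.

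Peaks at these genes were few and were often shared by neighbours. Over all libraries they merged into 18 regions, of which 10 lay in the window of more than 1 member and 1 in that of 3 members, so members are not independent. The strongest summit was within 1 kb of a member's canonical start in 16 of 18 regions and within 150 bp in 9. It lay 4 bp from the start of H1-2 in its 5′ UTR, 13 bp from that of H3C7, 23 bp before that of H4C9 and 32 bp before that of H2AC21. In that last region the summit also lies in an annotated UTR of the neighbouring gene BOLA1. Summits fell in the coding exon of H1-4, H1-5, H2AC7, H2AC25 and H3C6, at 90, 139, 63, 129 and 90 bp after the start. At H2BC10 the summit lay 525 bp before the start, so that the called region ended before the promoter stretch containing the octamer printed above.

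The peaks ranked low within their libraries. Ranked by significance from 0% for the strongest to 100% for the weakest peak, the median peak at a member stood at 83.7 and 79.6% in DMSO and at 69.8 and 86.7% in I-BET151. Their median width was 353.5 and 327.5 bp in the DMSO lists and 482 and 335.5 bp in the I-BET151 lists, where all peaks had medians of 564 to 596 bp. The ChIP reads at the summit, worked out from the deposited values, had a median of 55.5 and 81 in DMSO and 73 and 86 in I-BET151, against 175 to 218 for all peaks. Fold enrichment over local background was less apart, with medians of 5.96, 5.74, 7.16 and 5.37 at members in the order DMSO replicates 1 and 2 and I-BET151 replicates 1 and 2, against 5.87 to 6.42 for all peaks. The local input level was a median of 2 to 5 reads at members and 10 to 13.1 reads at all peaks.

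The question of the comparison is whether I-BET151 treatment changed H3K27ac at these genes. A peak was present at 27 and 23 members in the DMSO libraries and at 13 and 15 in the I-BET151 libraries, and these ranges do not overlap. Counted as regions, the numbers were 17 and 14 in DMSO and 9 and 10 in I-BET151. Over all protein-coding genes a peak was present at 10812 and 11003 genes in DMSO and at 10539 and 10342 in I-BET151. These ranges do not overlap either, so the lack of overlap is not particular to the members. The DMSO lists were also longer. When every list was cut to its 12312 most significant peaks, 20 and 14 members had a peak in DMSO and 12 and 15 in I-BET151, and the groups overlapped. With only peaks of −log10 q of at least 5, the numbers were 25 and 18 in DMSO and 12 and 12 in I-BET151.

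The length covered by peaks in a member's window averaged 139 and 125 bp over the 73 members in DMSO and 89.2 and 93.4 bp with I-BET151. The mean was 132 ± 9.88 bp (SD, n = 2) in DMSO and 91.3 ± 3.01 bp (SD, n = 2) in I-BET151, a difference of −40.7 bp or −30.8%. Over all protein-coding genes the means were 559 and 557 bp with DMSO and 518 and 490 bp with I-BET151, a difference of −9.66%. At equal list lengths the members' difference was −10.7 bp. Nearly all of the −40.7 bp came from 13 members with a peak in DMSO and 0 bp in both I-BET151 libraries, where an uncalled peak counts as 0 bp. At the 16 members with a peak in both groups the differences went in both directions. A peak shared by neighbours was counted once for each of them, so that 3 regions without a peak in I-BET151 entered this mean at 7 members.

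At 7 members a peak was called in each DMSO library while no I-BET151 library had one. They were H2AC6, H2AC17, H2BC4, H2BC5, H2BC6, H2BC17 and H3C12. This is 24.1% of the 29 members with a peak in any library, against 4.14% of all genes with a peak in any library. They rest on 3 of the 18 regions, 16.7%. The same share over merged regions of all genes was not counted, so 16.7% cannot be set beside the 4.14% of genes. The reverse pattern was found at 0 members, against 1.57% of all such genes.

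The first of these regions, chr6:26123293-26123576, lay 350 to 633 bp after the start of H2BC4, an H2B gene, and 596 to 879 bp before that of H2AC6, an H2A gene. Its peak covered 284 bp in DMSO replicate 1 and 247 bp in DMSO replicate 2, and 0 bp in both I-BET151 libraries. Fold enrichment was 7.78 and 5.67 in the DMSO libraries. These peaks had 24 and 21 reads at the summit and stood at 86.9 and 95.1% of their lists.

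The second region, chr6:27893730-27894070, lay 305 to 645 bp after the start of H2BC17 and 545 to 885 bp before that of H2AC17. It also fell in the window of the H3 gene H3C12, whose canonical start is 2904 bp or more away. The peak covered 304 and 330 bp with DMSO and 0 bp in both I-BET151 libraries. Fold enrichment was 8.95 and 8.23, with 28 and 32 reads at the summit.

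The third region, chr6:26171894-26172260, was counted for H2BC5 and H2BC6 because their annotated bodies run long. It lay 13772 bp or more after the canonical start of H2BC5 and 11501 bp or more before that of H2BC6. The summit of its strongest peak was, however, 17 bp from the annotated start of the H2BC6 gene body, which lies ahead of that canonical start. The region's peak covered 365 and 302 bp with DMSO and 0 bp in both I-BET151 libraries. Fold enrichment was 6.92 in DMSO replicate 1 and 2.49 in DMSO replicate 2, where the peak stood at 98.9% of its list. Only the first 2 regions were therefore near a member's canonical start, and with the 1 kb window around the start the count was 4 members, H2AC6, H2AC17, H2BC4 and H2BC17.

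In limma, fitted across 11112 genes with a peak in at least 2 libraries on log2 of the covered length plus 100 bp, 23 members could be tested. Of these, the 7 described above had met this minimum through the DMSO libraries alone and were compared with 0 bp in both I-BET151 libraries, so their call as lower restates the absence of a peak and is no test of a change. The same holds for 443 of the 860 genes called lower in the whole table. Of the other 16 members, which had a peak in both groups, 0 were called in either direction and 0 had an unadjusted p under 0.05. Among all 10450 such genes 3.99% fell and 0.89% rose, against 7.74% and 2.37% of all 11112 genes. No gene of the table, member or not, was called when any 1 library was left out, or with the replicate number as a term. The exact permutation test of a single gene cannot go below p = 0.33 with 2 libraries against 2.

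Covered lengths of the groups did not overlap at 10 of the 29 members with a peak in the direction of lower values under I-BET151, 34.5%, against 37.2% of all such genes. They did not overlap in the other direction at 2 members, 6.9%, against 14% of all such genes. Neither share was above that of all genes.

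Of the 10, the 3 beyond those already named kept a peak in 1 or both I-BET151 libraries. H2BC10 and H3C8 share the region chr6:26272100-26272663, which had the highest fold enrichment among members with a peak in all libraries. Its fold enrichment was 14.7 and 16.4 in DMSO, 18.6 in I-BET151 replicate 1 and 5.97 in I-BET151 replicate 2. Covered length in the window of H2BC10 was 564 and 525 bp with DMSO and 510 and 333 bp with I-BET151. For H3C8 it was 314 and 313 bp with DMSO and 273 and 155 bp with I-BET151. I-BET151 replicate 2 was the lowest library in fold enrichment and in both covered lengths. The local input was 1.09 and 1 reads in DMSO and 0.508 and 3 reads in I-BET151. The ChIP reads at the summit were 78 and 108 in DMSO and 69 in each I-BET151 library. Neither gene passed the test on covered length (adjusted p = 0.507 and 0.482, limma) or on fold enrichment (log2 change −0.56 ± 0.48 (SE), adjusted p = 0.746, limma).

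H4C9 had covered lengths of 577 and 569 bp with DMSO and of 0 and 512 bp with I-BET151. Its fold enrichment was 4.03 and 4.98 in DMSO and 4.15 in I-BET151 replicate 2. It was the only H4 gene of the chromosome 6 segment with a peak, and its peaks stood at 97.6 to 99.4% of their lists. Its log2 change of −1.44 ± 1.05 (SE) did not pass the test (adjusted p = 0.543, limma). H1-5 was covered over 551 and 305 bp with DMSO, 640 bp in I-BET151 replicate 1 and 0 bp in I-BET151 replicate 2, so that its groups overlapped.

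**Figure D4:**
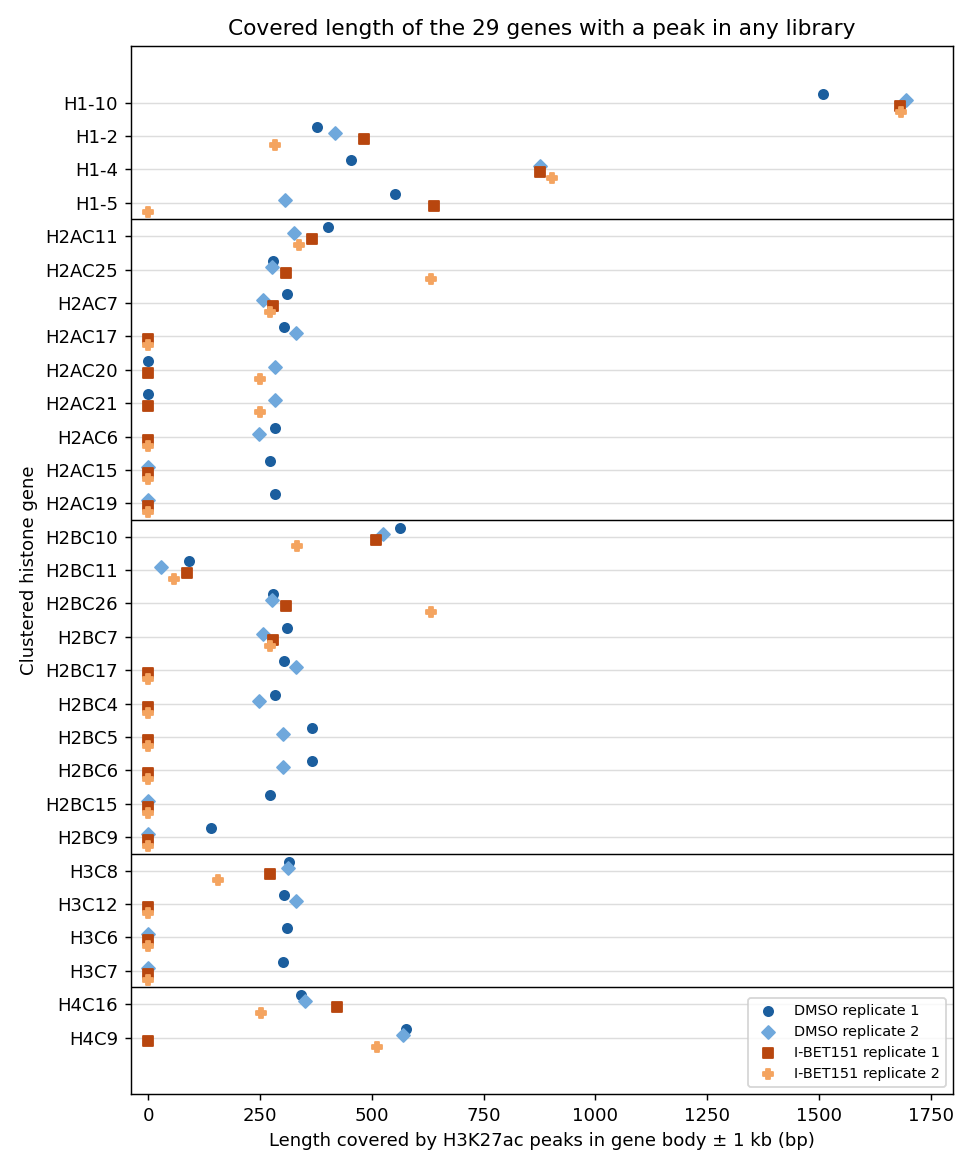
Length covered by H3K27ac peaks (horizontal axis, bp) within 1 kb of the gene or in its body, for the 29 members with a peak in any library (vertical axis, by family), with 1 point per library. H1-10 is the longest at 1510 bp or more in every library, and both I-BET151 points of 13 genes lie at 0, among them the 7 such as H2BC4 with a peak in both DMSO libraries.

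The genes with higher covered lengths in both I-BET151 libraries were H2AC25 and H2BC26. They are a head-to-head pair on chromosome 1, outside the segment, and share 1 region. It covered 279 and 276 bp with DMSO, 307 bp in I-BET151 replicate 1 and 632 bp in I-BET151 replicate 2. Fold enrichment was 3.53 and 5.27 in DMSO and 5.68 and 16.3 in I-BET151, a log2 change of 1.16 ± 0.416 (SE) that did not pass the test (adjusted p = 0.326, limma). The last library stands apart from the other 3. Fold enrichment divides by the local input, which was 6 and 5 reads in DMSO and 4 and 1 in I-BET151. On the ChIP reads at the summit per M ChIP reads (M, the SI prefix mega) the log2 change was 0.19 ± 0.31 (SE, adjusted p = 0.769, limma). With I-BET151 replicate 1 left out, the difference in covered length was 354.5 bp at both genes. With I-BET151 replicate 2 left out it was 29.5 bp. A fit without I-BET151 replicate 1 rests on the single library that stands apart, with its spread assumed to be that of the DMSO libraries. No share of all genes was counted beside its calls on fold enrichment, which are therefore not read as a change.

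On fold enrichment, limma tested 9675 genes with a peak in all 4 libraries, among them 12 members. No member was called in either direction, where 0.103% of all genes were higher and 0.114% lower, and 2 members, H2AC25 and H2BC26, had an unadjusted p under 0.05, as had 10.5% of all genes. The median log2 change was 0.051 over the 12 members and 0.06 over all genes, and its sign turned under several settings. H1-10, which stands apart from the clusters, was even between the groups, with fold enrichment of 4.84 and 6.96 in DMSO and 6.38 and 4.88 in I-BET151. Fold enrichment of H1-2 was 4.88 and 8.28 in DMSO and 4.93 and 3.15 in I-BET151, and of H1-4, the lowest of its family, 4.68 and 4.46 in DMSO and 2.79 and 4.41 in I-BET151. That of H2AC7 and H2BC7, a head-to-head pair, was 9.86 and 4.45 in DMSO and 7.16 and 7.63 in I-BET151. That of H2AC11 and H2BC11 was 4.57 and 4.79 in DMSO and 8.76 and 5.85 in I-BET151. H4C16, the H4 gene on chromosome 12, had 5.98 and 5.8 in DMSO and 8.67 and 2.95 in I-BET151. At these genes the groups overlapped in fold enrichment, except at H2AC11 and H2BC11, where both I-BET151 values were higher, and at H1-4, where both were lower. How many of all genes lacked overlap in fold enrichment was not counted. At H2AC11 and H2BC11 the local input was 12 and 11 reads in DMSO and 6 and 7 reads in I-BET151, and the log2 change of summit reads per M ChIP reads was −0.069 ± 0.17 (SE). At H1-4 the local input was 6.8 and 8 reads in DMSO and 11 and 6 reads in I-BET151. Its log2 change of summit reads per M ChIP reads was −0.2 ± 0.25 (SE). On that scale the 12 members lay between −0.25 and 0.19, and 0 were called (smallest adjusted p = 0.434, limma) or had an unadjusted p under 0.05, where 6.24% of 8911 genes were called higher and 8.34% lower.

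**Figure D5:**
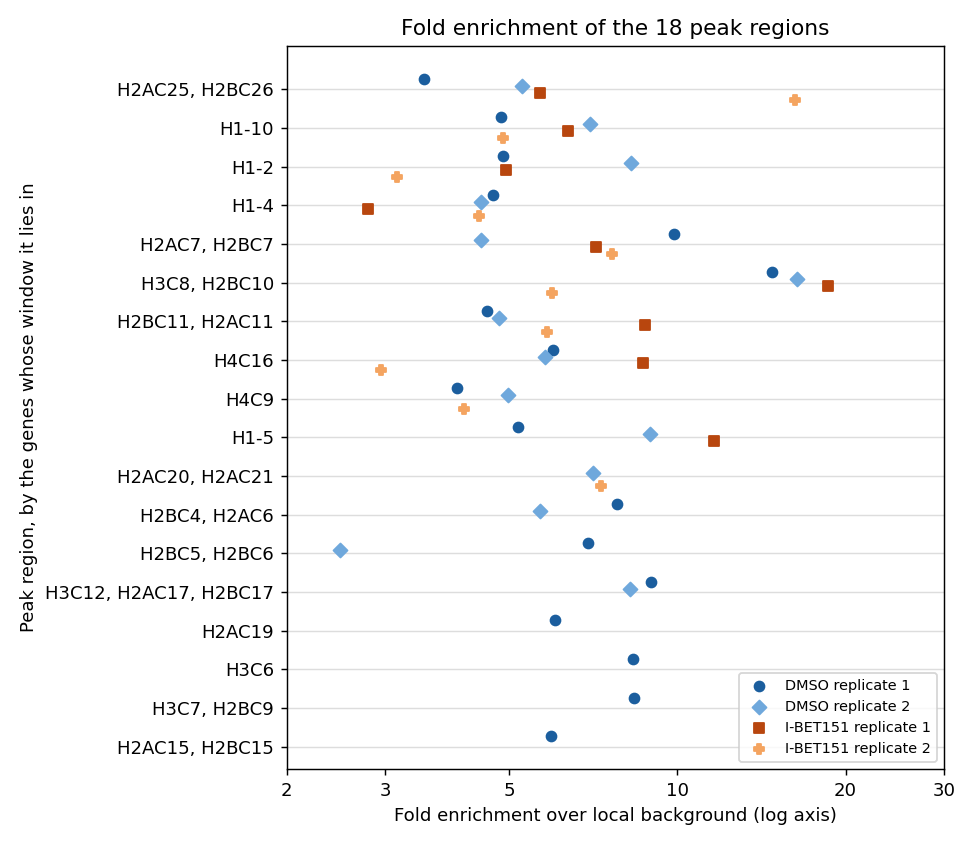
Fold enrichment over local background (horizontal axis, log scale) at the strongest peak of each of the 18 regions, named by the members in whose window it lies (vertical axis), with 1 point per library that called a peak. Both I-BET151 points are missing at 3 regions with 2 DMSO points, and the 2 I-BET151 points of H2AC25 and H2BC26 lie at 5.68 and 16.3.

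Other members had a peak in a single library or in 1 library of each group. A peak in DMSO replicate 1 alone was found at 6 members in 4 regions. It covered 284 bp at H2AC19, 310 bp at H3C6, 301 bp at H3C7, 140 bp of the window of its neighbour H2BC9, and 272 bp at the pair H2AC15 and H2BC15. Fold enrichment in these regions was 6.04, 8.32, 8.36 and 5.93, with 27 to 44 reads at the summit. H2AC20 and H2AC21 shared a peak of 284 bp in DMSO replicate 2 and of 249 bp in I-BET151 replicate 2, with fold enrichment of 7.07 and 7.29.

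Replication-independent histone genes, as a class expressed outside S phase too, were taken as a list of 16. The list includes H2AX and H3-4, which carried the 3′ stem-loop described above and so are not clear-cut cases. Of the 16, 8 had a peak in all 4 libraries and 7 had none, the latter including the germ cell genes H2BW1 and H3-4. H3-3A and H3-3B, the genes of the variant H3.3, were covered over 1452 to 1545 bp and 1305 to 1415 bp with DMSO and over 1489 to 1513 bp and 1233 to 1283 bp with I-BET151. MACROH2A2, which encodes a macroH2A variant, was covered over 1256 and 1284 bp with DMSO and 1586 and 1527 bp with I-BET151, and was the only gene of the list called higher, with 0 lower (log2 change 0.27 ± 0.041 (SE), adjusted p = 0.04996, limma, just under the threshold). Among all genes with a peak in both groups 0.89% rose and 3.99% fell. No call, in this list or those below, held with any 1 library left out or with the replicate number as a term.

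Of 20 genes for transcription and 3′ processing of histone mRNA, 14 had a peak in all 4 libraries. Of the 16 with a peak in both groups that were tested, 1 rose and 0 fell in covered length, beside 0.89% and 3.99% of all such genes. NPAT, the coactivator of histone genes in S phase, was covered over 344 and 275 bp with DMSO and 437 and 325 bp with I-BET151, and SLBP, which binds the stem-loop, over 1699 and 1225 bp with DMSO and 1239 and 1211 bp with I-BET151, and neither passed the test. CCNE2, the cyclin E2 gene, had 0 bp in both DMSO libraries and 773 and 957 bp with I-BET151, a pattern that is given as a description. YY1, a zinc finger factor, had 2596 and 2644 bp with DMSO and 3228 and 3161 bp with I-BET151 (adjusted p = 0.0469, limma).

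Of 18 histone chaperone genes, 16 had a peak in all 4 libraries. Of 17 tested with a peak in both groups, 1 rose and 0 fell, beside 0.89% and 3.99% of all such genes. CHAF1B, a subunit of the assembly factor CAF-1, had 0 bp in both DMSO libraries and 337 and 427 bp with I-BET151, again without a test. NAP1L1, a chaperone of H2A and H2B, had 762 and 733 bp with DMSO and 1344 and 1379 bp with I-BET151 (adjusted p = 0.0115, limma). Of the 20 other protein-coding genes between the members of chromosome 6, 3 had a peak in all 4 libraries and 12 had none, shares of 15% and 60% beside the members' 16.4% and 60.3%. Of the 3, 1 is an unnamed gene that overlaps H2AC7 and shares its peak. Among these neighbours PRSS16 had 274 and 334 bp with DMSO and 0 bp in both I-BET151 libraries, and of the 6 tested with a peak in both groups 0 rose, 0 fell and 0 had an unadjusted p under 0.05. Whether these lists differ from the clustered histone genes in their change was not tested.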

How the data were processed

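H3K27ac ChIP-seq was analysed in 4 libraries, 2 per group, and groups were taken from the library titles. Per the study's methods, the authors placed read pairs on hg38 by local alignment (Bowtie2 2.2.5), cleaned them with sambamba, took out PCR duplicates (Picard) and mitochondrial reads (samtools), and ran MACS2 2.1.2 with its defaults on each library. The deposited lists give fold enrichment as a ratio, −log10 p and −log10 q, and a score that was not used. Peak offsets gave summits. No multiple-alignment filter is stated, and reads of near-identical genes may be split between copies.

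Peaks within a gene body ± 1 kb (GENCODE release 44) were counted, and covered bp summed. ChIP reads at summits were worked out from fold and p for 97.3 to 98.1% of peaks, and library depths were estimated from the same values. limma 3.58.1 (R 4.3.3, trend, robust) tested log2 values, with Benjamini-Hochberg adjustment over all genes and a threshold of 0.05. The fits and the read recovery were tested on simulated data. For the fits these were normal values around each gene's mean, which did not imitate genes with a peak in the DMSO libraries alone. The rule found 74 genes, of which 1 is not reported here and was left out of every count of members but kept in the fits across all genes. The members, lists and named genes were chosen with earlier results of these data known. Named were members with no peak, with a peak in 1 to 3 libraries, without overlap between groups (up to 10 per direction), called by limma, and the 2 highest and 1 lowest by mean fold per family. Alternatives were other windows, peak thresholds, list lengths, pseudocounts, filters, centring, read numbers, left-out libraries and a replicate block.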

Additional observations from a re-analysis of the deposited data

How the results depend on the processing

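Members with a peak in all 4 libraries numbered 12, and 6 without the flank, 7 with −log10 q of at least 5, 3 with at least 10 and 7 at equal list lengths. Leaving out 1 library gave 12 to 13. Members with a peak in both DMSO and neither I-BET151 library numbered 7, and 3 without the flank, 4 around the start, 1 with −log10 q of at least 10, 3 at equal list lengths and 2 among members with at most 10% repeated stretches, a setting chosen after seeing the data. Leaving out 1 library gave 7 to 13, with 13 without DMSO replicate 2. The difference in covered length of −40.7 bp was −13.2 bp without the flank, −51.7 bp with 5 kb, −26.9 bp around the start, −25.5 bp with −log10 q of at least 10 and −10.7 bp at equal list lengths, and −47.7 to −33.7 bp with 1 library left out. Members without overlap numbered 10 lower and 2 higher, and 4 and 0 without the flank, with 3 lower at −log10 q of at least 10 and 5 at equal list lengths. Shares over all genes were not counted under other windows, thresholds or list lengths, here or for the members called lower below.

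Members called lower on covered length, which had no peak with I-BET151 and whose calls follow from the filter, numbered 7, and 3 without the flank, 4 around the start, 1 with −log10 q of at least 10, 3 at equal list lengths and 0 among genes with a peak in all 4 libraries. Leaving out any 1 library gave 0 to 0. With the replicate block it was 0, and the block left the difference of −40.7 bp as it was. The numbers share no stated origin, and the deviations of same-numbered libraries correlated at 0.0801 across 11112 genes. On fold enrichment 0 members were called higher, a count that moved without I-BET151 replicate 1 through H2AC25 and H2BC26. In that fit the lone I-BET151 library is assumed to vary like the DMSO libraries, and no share of all genes was counted for it. The median log2 change of fold, 0.051, was 0.61 with −log10 q of at least 5 or 10, −0.14 without the flank, −0.22 at equal list lengths, −0.082 with recovered reads, −0.025 when median-centred, and −0.27 to 0.26 with 1 library left out, with −0.27 without DMSO replicate 2 and −0.052 without I-BET151 replicate 1. The cause of these changes was not tested. Of single genes, H4C9 changed sign to 256 bp at equal list lengths. A further 44 single-gene differences moved by more than the spread between replicates without turning to the other sign. Other counts stayed within 1.5 times, and other differences kept their direction. With 2 libraries per group, few reads at these peaks and a fixed threshold, weaker acetylation was not detectable.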
